A study of Danio rerio with 4 samples.

Results

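Described here are the cell cycle and mitosis genes of the zebrafish testis: cyclins and their kinases, replication proteins, condensins, checkpoint proteins, mitotic kinases and spindle proteins. They were taken from a list of 47 genes. Of these, 38 had a probe on the array that could be named through its transcript, and all 38 were among the 24319 genes tested; each takes its value from the brightest of its probes by mean level. A total of 9 listed genes, top2a, espl1, bub1, bub1bb, incenp, tpx2, cenpe, cenpf and rrm2, had no probe named in this way and were not analysed here. Control fish were kept at 0 µg/L MCLR and treated fish at 20 µg/L MCLR, each for 6 weeks, with 2 samples per group, all from testes of fish 4 months of age. MCLR is microcystin-LR, which cyanobacteria make and which inhibits the phosphatases PP1 and PP2A. RNA was labelled with Cy3 and measured on 1-colour Agilent arrays. The labels do not say how many fish a sample holds or whether samples were pooled, nor which array came from which of the study's independent experiments, so p-values measure only the spread between these samples.

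Cells divide by switching cyclin-dependent kinases (CDKs) on and off in turn: cyclin D and E complexes start DNA replication, and cyclin A and B complexes carry the cell into mitosis. The mitotic kinases, condensins and spindle motors then separate the chromosomes, and the spindle checkpoint delays separation until every chromosome is attached. In the testis these genes serve the mitotic divisions of spermatogonia, and many serve the meiotic divisions of spermatocytes as well. Protein phosphatases, PP2A among them, reverse the phosphorylation set by CDKs when mitosis ends.

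All 4 arrays lay on 1 slide, with MCLR replicates in positions 1 and 2 and control replicates in positions 3 and 4, so the effect of position cannot be told apart from that of MCLR. On single arrays, between 81.9% and 88.2% of the 43803 zebrafish spots stood well above background, and relative to the median negative control, the 75th percentile was 262.6 and 221.3 times as bright on the control arrays against 159.9 and 223.0 on the MCLR arrays. Testis markers were tested for spermatogonia and germ line (4 of 5 listed), spermatocytes (4 of 5), spermatids and sperm (5 of 7), Sertoli cells (4 of 4) and Leydig cells (4 of 4). Those tested all stood well above background on each array, which the filter on probes already asked of both arrays of at least 1 group. Control replicate 2 stood apart in 10 pancreas markers, whose summed signal was 207.9 times the array's 75th percentile there against 9.78 to 12.4 times on the other arrays. The numbers of genes with a negative log2 fold change and below genes of the same level are therefore also given without it. Control replicate 1 stood apart in the nerve cell marker snap25a, with a level of 4.26 against -1.42, 1.17 and -1.81 on control replicate 2, MCLR replicate 1 and MCLR replicate 2. The other marker tested of nerve cells and glia, gfap, did not follow it, at -5.73 and -6.18 in controls against -2.14 and -4.60 in MCLR. Levels here are log2 signals relative to the array's 75th percentile, and since brightness differs between probes for reasons other than RNA amount, levels are set against each other only between arrays.

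The comparison of MCLR with control asks whether the toxin moved the expression of genes for cell division in the testis. No cell cycle gene passed the threshold. By limma, 0 of 38 had an adjusted p under 0.05, where 0% of all genes tested were called in either direction, and the smallest adjusted p was 0.561. At an unadjusted p under 0.05 there were also 0 of 38, against 8.66% of all genes called higher and 0.53% called lower. Among the 18335 other genes within the range of mean level of the 38, 336 were called higher and 77 lower at that p. A negative log2 fold change was found for 25 of the 38 (65.8%), against 38.6% of all genes tested. Their median log2 fold change was -0.038, with single genes from -0.53 to 0.68, beside a median of 0.082 over all genes. The median stayed below 0 with each other scaling, and was 0.082 without MCLR replicate 1. In samples of whole testis, a change in the number of dividing cells cannot be told apart from a change in their RNA. No cell cycle gene was called in either direction here.

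**Figure D1:**
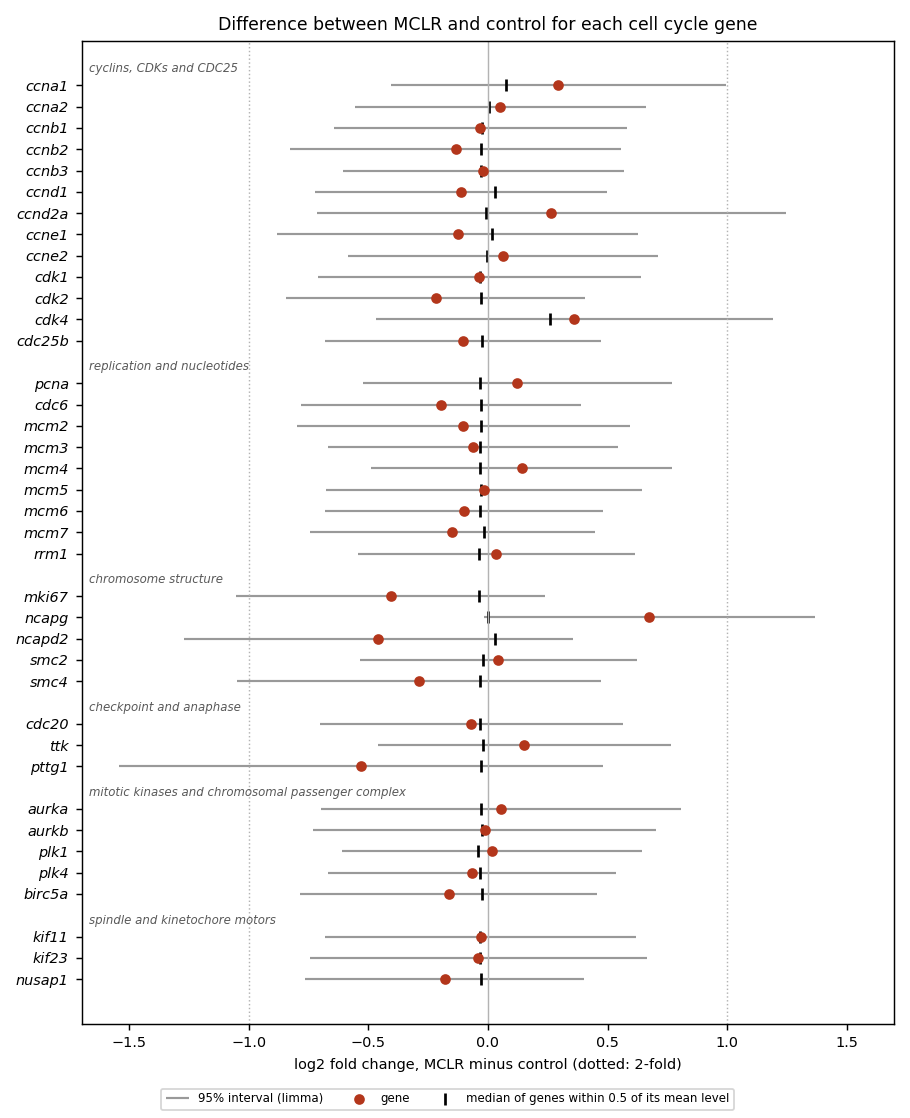
The log2 fold change of MCLR against control is plotted for each of the 38 cell cycle genes (points) with its 95% interval from limma (lines), and black ticks give the median of all genes within 0.5 of the gene's mean level. Every interval includes 0, and 7 of the 38 reach a 2-fold difference (dotted lines).

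Genes with dim probes had more positive log2 fold changes across the whole array, so the comparison was also made with genes of the same level. All genes with a mean level at or below -4 had a median log2 fold change of 0.57, and those with a level between 3 and 4, the bin that held most cell cycle genes (13), had -0.028. For each cell cycle gene, the median log2 fold change of all genes within 0.5 of its mean level was taken away. The median of the remainders was -0.0078, and 21 of the 38 lay below 0. The share of genes with a negative log2 fold change was 54.5% among genes of the same level, averaged over the 38 windows. The remainder was furthest from 0 at 0.68 for ncapg, and the median remainder moved to -0.12 without MCLR replicate 2 and to 0.067 without MCLR replicate 1. Without control replicate 2 the median remainder was -0.089, with 29 of the 38 below 0. Without control replicate 1 it was 0.061, with 16 below 0.

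**Figure D2:**
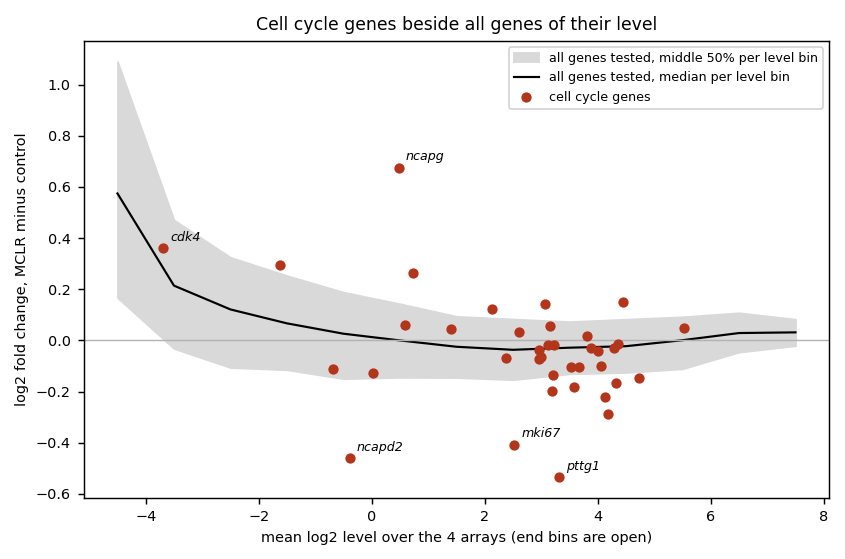
The log2 fold change is plotted against the mean log2 level of each cell cycle gene (points), with the median (line) and the middle 50% (band) of all genes tested in bins of level. The line falls from 0.57 in the dimmest bin to near 0, and 22 of the 38 cell cycle genes lie within the quartiles of their bin, 10 below and 6 above. The genes named in the plot are ncapg and cdk4 on the positive side and pttg1, mki67 and ncapd2 on the negative side.

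The spread between arrays of 1 group was as large as the difference between groups. For 33 of the 38 genes (86.8%), the gap between the 2 arrays of at least 1 group exceeded the difference between group means, against 76.9% of all genes tested and 83.3% of those within the range of mean level of the 38. The median gap was 0.12 between the control arrays and 0.26 between the MCLR arrays, where genes of the same level had 0.25 and 0.22. By median level, the MCLR replicates lay at opposite ends. Of the 38 genes, 22 were lowest on MCLR replicate 1 and 18 were highest on MCLR replicate 2, shares of 57.9% and 47.4% against 31.9% and 27.3% among genes of the same level. MCLR replicate 2 lay above MCLR replicate 1 for 29 of 38 genes (76.3%, against 59.2% at the same level). The controls departed from genes of the same level too, in the other direction. Control replicate 2 lay above control replicate 1 for 23 of 38 genes (60.5%, against 74.1% at the same level). The median level of the 38 was 3.18 and 3.13 on control replicates 1 and 2, and 2.98 and 3.24 on MCLR replicates 1 and 2. After the median of genes of the same level was taken away, the corresponding deviations from the mean of the 4 arrays were 0.079, -0.062, -0.083 and 0.069. Control replicate 1 was then the highest array and MCLR replicate 1 the lowest, and the controls lay about as far apart as the MCLR arrays. MCLR replicate 1 was also the array with the lowest signal over negative controls (159.9 times), and its part in the difference between the MCLR arrays was not tested. Testis cell markers did not share 1 order. On MCLR replicates 1 and 2 the summed signal was 81.7 and 75.4 for spermatogonia and germ line, and 102.8 and 102.9 for spermatocytes. It was 111.5 and 132.3 for spermatids and sperm, 83.1 and 76.1 for Sertoli cells, and 41.1 and 54.9 for Leydig cells. On control replicates 1 and 2 it was 77.4 and 91.5 for spermatogonia and germ line, and 109 and 119 for spermatocytes. There it was 118.7 and 118.0 for spermatids and sperm, 52.7 and 79.1 for Sertoli cells, and 41.1 and 66.1 for Leydig cells. Such sums are weighted towards their brightest genes, and numbers of cells were not measured.

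**Figure D3:**
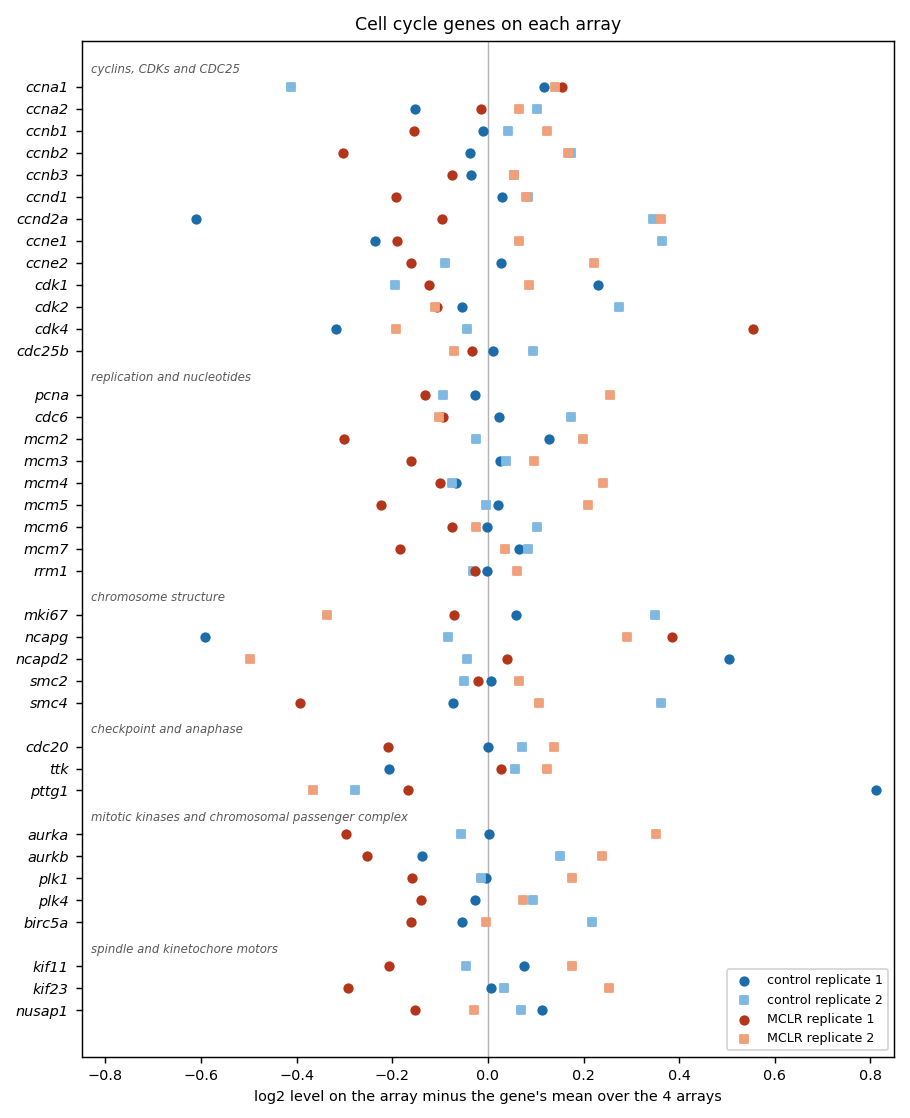
The log2 level of each cell cycle gene on each of the 4 arrays is plotted as its deviation from the gene's own mean, in blue for control and in red for MCLR (circles replicate 1, squares replicate 2). MCLR replicate 1 is the lowest point for 22 genes and MCLR replicate 2 the highest for 18, and pttg1 stands far to the right on control replicate 1.

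Both MCLR arrays lay below both control arrays for 7 genes (18.4%), against 9.08% of all genes tested and 13.3% of genes of the same level. These were the kinase gene cdk2, the CDK-activating phosphatase gene cdc25b, the replication genes cdc6, mcm6 and mcm7, the proliferation marker mki67 and the spindle gene nusap1. Both MCLR arrays lay above both controls for 2 genes, ccna1 and ncapg (5.26%), against 25.3% of all genes and 8.80% at the same level. None of the 9 had an unadjusted p under 0.05 by limma with the processing reported, so these orderings are given as descriptions. Signs of single genes are counted below over 8 settings. These were the reported one, quantile normalization, background correction, averaged probes, and each of the 4 arrays left out in turn. Median scaling moved every gene by -0.096 alike and is not among them, though it turned the sign of 6 of the 38. For genes with 1 measured probe, the average repeats the reported value.

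Among the cyclins, CDKs and CDC25 genes (13 measured), 8 had a negative and 5 a positive log2 fold change, with a median of -0.031 and a range from -0.22 to 0.36. The cyclin B genes, whose proteins bind Cdk1 to drive entry into mitosis, differed little. The level of ccnb1 was 4.27 and 4.32 in controls against 4.13 and 4.41 in MCLR, which gave a log2 fold change of -0.031 ± 0.25 (SE, n = 2 per group). Its MCLR arrays lay on either side of the controls. Its 6 probes gave -0.16 to 0.22. For ccnb2 the level was 3.17 and 3.39 in controls against 2.91 and 3.38 in MCLR (-0.14 ± 0.28), and for ccnb3 it was 3.09 and 3.17 against 3.05 and 3.18 (-0.019 ± 0.23). The kinase gene cdk1 itself stood at 3.19 and 2.77 in controls against 2.84 and 3.05 in MCLR, with -0.036 ± 0.27, and the groups overlapped.

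The cyclin A genes gave small positive values, ccna1 in 8 of 8 settings and ccna2 in 6. The level of ccna2, the cyclin A of dividing cells, was 5.37 and 5.62 in controls against 5.51 and 5.59 in MCLR, so that the MCLR arrays lay between the controls (log2 fold change 0.05 ± 0.24). In mice, cyclin A1 is made mainly in male germ cells and is needed for meiosis. The level of ccna1 was -1.50 and -2.03 in controls against -1.47 and -1.48 in MCLR, which gave a log2 fold change of 0.29 ± 0.28 with an adjusted p of 0.974 by limma. Both MCLR arrays were higher, by a small margin over control replicate 1, and a second probe gave 0.049. Genes of the same level had a median of 0.074, and after background correction the value of ccna1 was 0.12.

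The cyclins and kinases of the start of the cycle showed no common direction. The cyclin E genes, whose proteins activate Cdk2, gave -0.13 ± 0.30 (ccne1) and 0.062 ± 0.26 (ccne2), and the D-type cyclin gene ccnd1, whose protein activates Cdk4 and Cdk6, gave -0.11 ± 0.24. For ccnd2a the level was 0.13 and 1.08 in controls against 0.64 and 1.1 in MCLR, which gave a log2 fold change of 0.27 ± 0.39. Control replicate 1 alone was low, and the value turned to -0.21 without it. The level of cdk2 was 4.07 and 4.40 in controls against 4.01 and 4.01 in MCLR (-0.22 ± 0.25), and its other probe gave -0.0011. The dim probe of cdk4 gave -4.01 and -3.73 in controls against -3.13 and -3.88 in MCLR, which gave a log2 fold change of 0.36 ± 0.33. MCLR replicate 1 alone was high, genes of the same level had a median of 0.26, and after background correction the value was 0.071. The level of cdc25b was 3.54 and 3.63 in controls against 3.50 and 3.46 in MCLR (-0.10 ± 0.23), and all 3 of its probes were negative, from -0.19 to -0.10.

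The genes of DNA replication and nucleotide supply (9 measured) had a median of -0.063 and ranged from -0.20 to 0.14, with 6 negative. The proteins of mcm2 to mcm7 form the ring that opens the DNA helix at replication forks. Of the 6, 5 had a negative log2 fold change, mcm6 and mcm7 in 8 of 8 settings, mcm2 and mcm3 in 7, and mcm5 in 4. Among genes of the same level, 53.0% to 58.4% were negative. Relative to the median of those genes, mcm2, mcm3, mcm6 and mcm7 lay at -0.072, -0.032, -0.069 and -0.13. On the same measure mcm4 and mcm5 lay at 0.18 and 0.013. The level of mcm7 was 4.80 and 4.82 in controls against 4.55 and 4.77 in MCLR, which gave a log2 fold change of -0.15 ± 0.24. The MCLR arrays lay below the controls, MCLR replicate 2 by less than 0.1. A second bright probe of mcm7 gave -0.16, but the 2 dim probes gave -0.068 and 0.32. For mcm6 the level was 4.05 and 4.15 in controls against 3.97 and 4.03 in MCLR (-0.10 ± 0.23). The level of mcm2 was 3.80 and 3.65 in controls against 3.37 and 3.87 in MCLR (-0.10 ± 0.28), and that of mcm3 was 3.03 and 3.04 against 2.84 and 3.10 (-0.063 ± 0.24). In both, MCLR replicate 1 was the lowest array and MCLR replicate 2 the highest. The same order held for mcm5, at 3.24 and 3.21 in controls against 2.99 and 3.43 in MCLR (-0.016 ± 0.26). Its 4 probes ran from -0.096 to 0.77, and a second bright one gave 0.099. Of the 6, only mcm4 had a positive value as reported, 0.14 ± 0.25, with 4 positive probes. Its level was 2.99 in both controls and 2.96 and 3.30 in MCLR.

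The other replication genes were as close. The level of pcna, the sliding clamp of DNA polymerase, was 2.10 and 2.04 in controls against 2.00 and 2.39 in MCLR, which gave a log2 fold change of 0.12 ± 0.26. The groups overlapped. For cdc6, which loads the Mcm ring onto DNA, it was 3.21 and 3.36 in controls against 3.09 and 3.08 in MCLR (-0.20 ± 0.23). Its dim second probe gave 0.37. The gene rrm1, for the large subunit of ribonucleotide reductase that makes deoxynucleotides, was nearly level at 2.61 and 2.58 in controls against 2.59 and 2.68 in MCLR (0.034 ± 0.23). The listed name rrm2 is an older name shared by the genes now called rrm2l and rrm2b, and could not be assigned to 1 of them. The brightest of 6 probes of rrm2l gave -0.0051 ± 0.27, and the 6 ran from -0.022 to 0.20.

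The genes of chromosome structure (5 measured) held 3 of the 4 log2 fold changes above 0.4 in size, in both directions. The level of ncapg, a subunit of condensin I that compacts mitotic chromosomes, was -0.11 and 0.40 in controls against 0.86 and 0.77 in MCLR. Both MCLR arrays lay above both controls. Its log2 fold change of 0.68 ± 0.28 (1.60-fold) had the smallest p of the 38, 0.0546 unadjusted and 0.561 adjusted by limma, with a 95% interval from -0.019 to 1.37. A second probe of ncapg gave 0.28. Without 1 array the value ran from 0.42 (without control replicate 1) to 0.93 (without control replicate 2). Another condensin I subunit gene, ncapd2, went the other way, at 0.11 and -0.43 in controls against -0.35 and -0.89 in MCLR, which gave a log2 fold change of -0.46 ± 0.33. Its groups overlapped, and its 4 probes ran from -0.46 to 0.19.

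The ATPase core of both condensins is made by smc2 and smc4. The level of smc4 was 4.11 and 4.54 in controls against 3.79 and 4.29 in MCLR, which gave a log2 fold change of -0.29 ± 0.30, and a second probe gave -0.23. After the background correction the value of smc4 was -0.10, against -0.29 as reported. For smc2 the level was 1.41 and 1.36 in controls against 1.39 and 1.47 in MCLR (0.044 ± 0.23). The condensin genes had no shared direction. Positive in 8 of 8 settings was ncapg, ncapd2 and smc4 were negative in 8 of 8, and smc2 was positive in 7. Because its groups did not overlap, the sign of ncapg could not turn when 1 array was left out. The sizes differed with the array left out. With 1 array left out, smc4 ran from -0.54 (without MCLR replicate 2) and -0.51 (without control replicate 1) to -0.071 (without control replicate 2) and -0.038 (without MCLR replicate 1). Likewise ncapd2 was -0.18 without control replicate 1 and -0.19 without MCLR replicate 2, but -0.73 without either of the other arrays.

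The marker mki67 codes for Ki-67, which coats mitotic chromosomes and is widely used to count dividing cells. Its level was 2.57 and 2.87 in controls against 2.44 and 2.18 in MCLR. Both MCLR arrays were lower than both controls, MCLR replicate 1 by a small margin. Its log2 fold change was -0.41 ± 0.26 (1.33-fold lower, 95% interval -1.05 to 0.24, adjusted p = 0.842 by limma). It was -0.26 without control replicate 2, -0.28 without MCLR replicate 2, -0.54 without MCLR replicate 1 and -0.55 without control replicate 1. A second bright probe gave -0.38, at 2.51 and 2.71 in controls against 2.23 and 2.23 in MCLR, and the dim ones gave -0.33 and -0.75. In the latter only control replicate 2 stood apart, at -0.79 against -2.17 on control replicate 1 and -2.17 and -2.30 in MCLR. The remaining probe went the other way, at 1.88 and 1.40 in controls against 1.74 and 1.97 in MCLR (0.22).

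**Figure D4:**
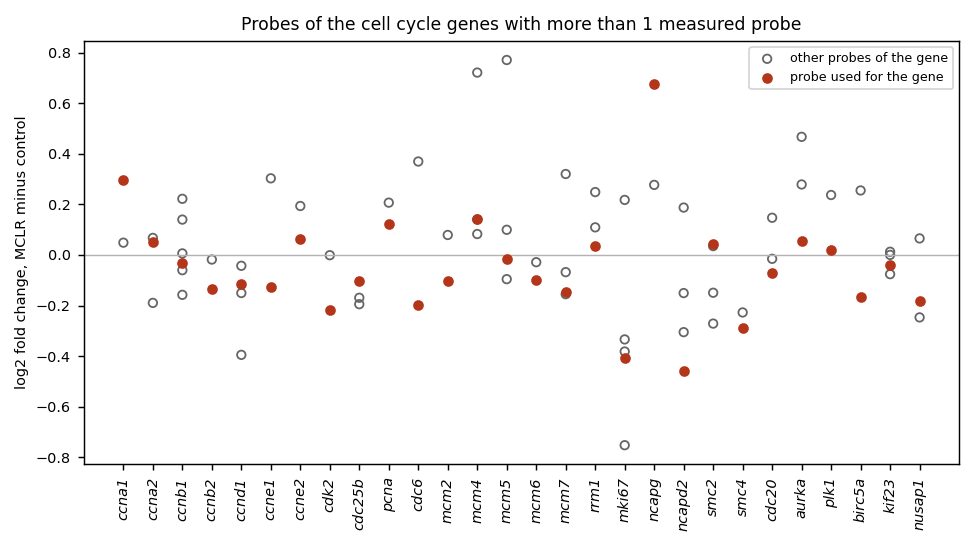
The log2 fold change of MCLR against control is plotted for each measured probe of the 28 cell cycle genes with more than 1 such probe, filled for the probe used and open for the others. The probes of a gene lay a median of 0.28 apart, and 14 of the 28 genes had probes on both sides of 0.

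The probes not used were no closer to a common direction. There were 55 of them, 36 with the sign of the probe used for the gene and 19 with the opposite sign. Their median log2 fold change was 0.013, with 25 negative. By rule they were dimmer than the probe used, and genes with dim probes had more positive values across the whole array. These probes were not compared with others of their level, so opposite signs can reflect that trend as well as differences between probes. Probes on both sides of 0 and over 0.5 apart were found for 4 genes, cdc6, mcm5, mki67 and ncapd2. In cdc6 and mcm5 the outlying value came from a dim probe, with 0.37 and 0.77. A second bright probe of mcm5 was also positive, at 0.099 against -0.016 for the probe used.

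Of the checkpoint and anaphase genes, 3 were measured. The level of pttg1, for securin, which holds the sister-separating enzyme separase inactive until anaphase, was 4.12 and 3.03 in controls against 3.14 and 2.95 in MCLR. Control replicate 1 was high by about 1 log2 unit, and the other 3 arrays lay close together. Its log2 fold change of -0.53 ± 0.40 became 0.012 without control replicate 1 and -1.08 without control replicate 2. Only 1 probe of pttg1 was measured. For cdc20, the activator of the anaphase-promoting complex, the level was 2.97 and 3.04 in controls against 2.76 and 3.11 in MCLR (-0.071 ± 0.25). The level of ttk, the Mps1 kinase of the spindle checkpoint, was 4.24 and 4.50 in controls against 4.47 and 4.57 in MCLR (0.15 ± 0.24).

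The mitotic kinases and the chromosomal passenger complex (5 measured) gave values from -0.16 to 0.055, and for all 5 the lowest array was MCLR replicate 1. The widest gap between the MCLR arrays was in aurka, the Aurora kinase of spindle poles, at 3.15 and 3.09 in controls against 2.85 and 3.50 in MCLR (0.055 ± 0.30). The controls lay between the MCLR arrays. Aurora B, from aurkb, is the kinase of the passenger complex that corrects faulty attachments. Its level was 4.23 and 4.51 in controls against 4.11 and 4.60 in MCLR (-0.014 ± 0.29). The level of birc5a, for its partner survivin, was 4.27 and 4.54 in controls against 4.16 and 4.32 in MCLR (-0.16 ± 0.25), and its dim second probe gave 0.25. Polo-like kinases act at centrosomes and kinetochores. The level of plk1 was 3.81 and 3.80 in controls against 3.66 and 3.99 in MCLR (0.018 ± 0.25), and that of plk4, which starts centriole copying, was 2.35 and 2.47 against 2.24 and 2.45 (-0.067 ± 0.24).

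The spindle genes (3 measured) had negative values as reported, but nusap1 alone was negative in 8 of 8 settings, with kif23 in 5 and kif11 in 4. As in the kinases, MCLR replicate 1 was the lowest array for each of the 3. The motor gene kif11, for Eg5, which pushes spindle poles apart, was at 3.96 and 3.84 in controls against 3.68 and 4.06 in MCLR (-0.031 ± 0.26). The motor gene kif23, whose protein acts in cytokinesis, was at 4.01 and 4.04 in controls against 3.71 and 4.26 in MCLR (-0.04 ± 0.28). In both the controls lay between the MCLR arrays. The level of nusap1, for a protein that binds spindle microtubules, was 3.68 and 3.64 in controls against 3.42 and 3.54 in MCLR (-0.18 ± 0.23), with both MCLR arrays lower. Its 3 probes ran from -0.25 to 0.065.

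A separate list of 146 other cell cycle genes covered transcription factors, CDK inhibitors, origin and fork proteins, the anaphase-promoting complex, cohesin and kinetochores, and 119 were tested. Of these 0 passed the adjusted threshold, with a smallest adjusted p of 0.363 by limma. At an unadjusted p under 0.05 by limma, 2 of the 119 were higher (of all genes 8.66%) and 0 lower (of all genes 0.53%). The corresponding shares among genes of their level were not counted. Their median log2 fold change was -0.017, with 64 negative and 55 positive. Relative to genes of the same level the median was -0.013, and 63 of 119 lay below 0. MCLR replicate 2 lay above MCLR replicate 1 in 79 of 119 (66.4%), against 57.7% among genes of their level.

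Both positive ones with an unadjusted p under 0.05 by limma, ensab and orc5, were dim. The gene ensab, for an endosulfine, an inhibitor of PP2A in mitosis once phosphorylated, was at -4.92 and -5.61 in controls against -3.82 and -4.40 in MCLR, with 1.16 ± 0.36 (adjusted p = 0.363 by limma). Its spot stood well above background on 1 of the 2 control arrays and on both MCLR arrays, genes of the same level had a median of 0.47, and after background correction with an offset the value was 0.16. The origin recognition gene orc5 gave 0.83 ± 0.31 (adjusted p = 0.498), and 0.073 after that correction. Next came cdc25d (0.43 ± 0.24), the E2F family gene e2f6 (0.29 ± 0.25) and the cyclin H gene ccnh (0.26 ± 0.25). These were less dim, with mean levels of -1.84, -1.90 and -1.72. Genes of the same level had medians of 0.083, 0.086 and 0.075, and after that correction the values were 0.23, 0.16 and 0.10.

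The negative ones with the smallest p had no unadjusted p under 0.05. The level of anapc11, a subunit of the anaphase-promoting complex, was 4.35 and 4.42 in controls against 3.99 and 4.00 in MCLR, which gave a log2 fold change of -0.39 ± 0.23 (adjusted p = 0.805 by limma). Its groups did not overlap, and the gap between them exceeded the gaps within them. The chromatin assembly gene chaf1a was at 4.38 and 4.08 in controls against 4.05 and 3.40 in MCLR (-0.50 ± 0.31), and all 5 of its probes were negative, from -0.50 to -0.27. The remaining ones were ccng2, for cyclin G2 (-0.36 ± 0.24, a second probe 0.14), the transcription factor gene e2f3 (-0.29 ± 0.24) and cdc27, for another subunit of the anaphase-promoting complex (-0.32 ± 0.26).

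Over the 8 settings, 8 of the 38 genes were negative in each: cdk2, cdc25b, mcm6, mcm7, mki67, ncapd2, smc4 and nusap1. Another 3 were positive in each, ccna1, ncapg and ttk. The other 27 took both signs. Among the genes of 1 sign, only ncapd2, smc4 and ttk had overlapping groups. The sign of the rest was fixed by their ordering when 1 array was left out. The share of all genes that kept 1 sign over these settings is not given here. Another 4 settings (the filters on dim probes, the prior and the replicate block) left every fold change as reported, the deposited value table gave the quantile values again, and median scaling moved each gene by -0.096 alike. By limma, 1 of the 38 had an unadjusted p under 0.05 with quantile normalization, with background correction and with the deposited table. The same number did with the filter on all 4 arrays and with the trended and robust prior. With median scaling, no filter on dim probes, averaged probes and the replicate block there were 0. With 1 array left out, a group holds a lone array, and the counts at that p are not given. The shares of all genes at that p in these settings are not given either, so the counts are not read as a result. The number of negative genes was 20 with quantile normalization, 19 after background correction and 31 with median scaling. It was 31 without MCLR replicate 2 and 12 without MCLR replicate 1, and 24 and 22 without control replicates 1 and 2. In none of the 14 settings run did a cell cycle gene pass the adjusted threshold, the smallest adjusted p by limma being 0.202, without control replicate 2.

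**Figure D5:**
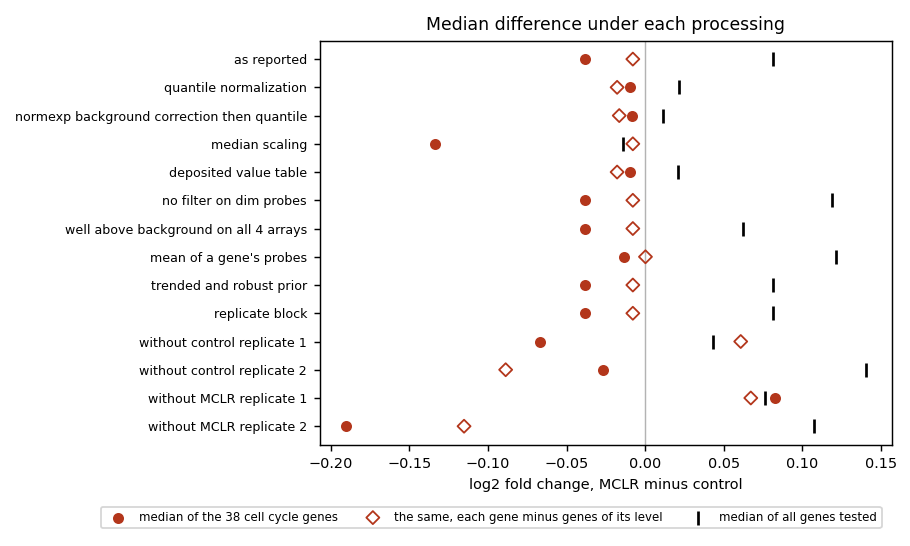
For each of the 14 settings run, 4 of which leave the fold changes as reported, the median log2 fold change of the 38 cell cycle genes is plotted (filled), beside the same after genes of their level were taken away (open diamonds) and the median of all genes tested (ticks). The filled points run from -0.19 without MCLR replicate 2 to 0.082 without MCLR replicate 1, and the open ones from -0.12 to 0.067.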

How the data were processed

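Agilent Feature Extraction 11.0.1.1 wrote the 4 scanner files, per the file headers. Their processed signal is an intensity on a linear scale, per the file headers, from which background and spatial trend were removed array by array; 0 or 1 marks give whether a spot was well above background, saturated or an outlier (other units). The authors also deposited a table of log2 values whose quartiles are equal on all arrays. How it was made is not given in the sources used here, and it served only for a check.

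From log2 of the processed signal, log2 of the 75th percentile of all non-control spots on that array was taken away. Repeated spots of a probe were averaged, and 71 probes were dropped for an outlier mark on any array. Names came by transcript through a RefSeq table of assembly GRCz12tu, which matched 25978 of 43603 probes (59.6%); the others were tested under their own identifiers. A probe was kept if well above background on both arrays of at least 1 group. A gene took its probe with the highest mean, which gave 24319 genes; 93 of the 95 probes of the 38 cell cycle genes were kept, and every probe used was above background on all 4 arrays. The 2 groups were compared with limma 3.58.1 under R 4.3.3 (group only, eBayes, two-sided, Benjamini-Hochberg over all genes, threshold 0.05). With 2 residual and 3.52 prior degrees of freedom, a gene with the median standard error reached an unadjusted p of 0.05 at a log2 fold change of 0.69. The number of arrays limits the precision.

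The genes and lists were chosen with earlier results of these data known, so lists are described by counts and medians with no test of their own. Genes given array by array include those without overlap and at least 0.3 in size, the extremes of each role group and those with discordant probes; of the other cell cycle genes, the 5 with the smallest p in each direction are named. Alternatives were quantile normalization, normexp (offset 50) on the median spot intensity with quantile normalization, median scaling, the deposited log2 table, averaging the probes of each gene, no filter or a filter on all 4 arrays, a trended and robust prior, the replicate number as a block, leaving out each array, and level windows of 0.25 and 1. The fit was tested on simulated data. Python 3.11.15 with pandas 2.3.3 and matplotlib 3.10.9 drew the plots. No probe, promoter or protein sequence was used here.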

Additional observations from a re-analysis of the deposited data

How the results depend on the processing

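Over all genes, 0 were called as reported; 214 were called with median scaling (208 higher, 6 lower), 2 with the trended and robust prior, and 0 to 321 when 1 array was left out, the highest without control replicate 2 and 214 without control replicate 1. None of these calls was among the 38 cell cycle genes. The median of the 38 cell cycle genes, -0.038 as reported, ran from -0.19 (without MCLR replicate 2) to 0.082 (without MCLR replicate 1) when 1 array was left out, and the number with a negative value from 31 to 12 of 38. The median of the 119 other cell cycle genes was -0.11 with median scaling, against -0.017 as reported, and ran from -0.091 to 0.062 when 1 array was left out (-0.079 without control replicate 1). The move of the medians with median scaling is the shift of -0.096 that it gave every gene alike. The cause of the other moves was not tested. The median relative to genes of the same level stayed within the spread between replicates with each scaling, filter and window tried (-0.0078 as reported). When the probes of each gene were averaged it was 2.4e-04. When 1 array was left out it ran from -0.12 to 0.067. The value of mki67 ran from -0.55 to -0.26 and that of ncapg from 0.42 to 0.93 when 1 array was left out. The labels give both groups the replicate numbers 1 and 2 without saying what a number marks; the deviations of same-numbered arrays correlated at 0.19 across genes, and with 2 pairs this does not show a pairing. With the replicate number as a block the median was again -0.038, 0 genes were called and the smallest adjusted p of a cell cycle gene was 0.558. A lone array left in a group is taken to have the spread of the other group.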
